A study of Mus musculus with 5 samples.

Results

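The cytosolic ribosomal protein genes are the 80 genes, of 32285 in the count tables, whose mouse symbol is Rps or Rpl with a number (and at most 1 of the letters a, x, l or y), together with Rplp0, Rplp1, Rplp2 and Rpsa. They comprise 31 small-subunit genes (Rps, with Rpsa) and 49 large-subunit genes (Rpl and Rplp). The rule used names and no measured value. It leaves out genes of the ribosome that carry other names, such as Fau, Rack1 and Rps3a1, which are given separately. All 80 were annotated as protein-coding. Rpl10l had no UMI in any population and Rpl39l reached at most 3.25 CPM (UMIs per 1000000 UMIs of a population), so 78 members reached the 20 CPM needed to be compared.

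Each cytosolic ribosome holds a single copy of nearly every one of these proteins, built around the ribosomal RNAs, so cells make the proteins in matched amounts. In mammals their messenger RNAs typically begin with a stretch of C and T bases, the 5′ terminal oligopyrimidine or TOP motif, through which growth signals acting via mTOR and LARP1 control their translation and storage. Neutrophils lose much of their protein-making machinery as they mature from dividing precursors in the marrow to short-lived blood cells packed with granule proteins, so ribosomal protein messages are high in precursors and lower in mature cells.

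Neutrophils were sorted from bone marrow (BM), peripheral blood (PB) and lung of female wild-type C57BL/6J mice and profiled on 10x Chromium with version 3 chemistry, in which each captured RNA molecule is counted once by its unique molecular identifier (UMI). The mice were naive, carried AT3 tumours (AT3 is a mouse mammary carcinoma line) or carried AT3-gcsf tumours, a name the labels do not explain. G-CSF is the growth factor that drives neutrophil production. Each condition was 1 library in which 3 cell populations had been marked by hashtag antibodies and loaded together, and the labels tie no tag to a tissue, nor give the number or age of the animals or whether they were pooled. The 9 populations are therefore named by their tags (MHTO3, MHTO4 and MHTO5 in naive and again in AT3-gcsf, MHTO7, MHTO8 and MHTO10 in AT3), and the same tag in 2 libraries is not the same tissue by any label. With 1 library per condition no test between conditions is possible and none was run. The 3 populations in a lane are not replicates, so a statement that groups do not overlap describes these libraries only, and condition, lane and library cannot be told apart. Intervals are exact 95% intervals and cover counting error only.

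The 3 libraries held 7738, 7840 and 10828 cell barcodes, of which 7139, 7497 and 10106 cells were used, with 27025975 UMIs in naive, 50369742 in AT3 and 89206582 in AT3-gcsf. The median cell held 2759, 4771 and 7589 UMIs. The 15 neutrophil markers made up 15.8% to 47.2% of UMIs in the 9 populations and all 15 reached 20 CPM, so the labelled cell type was borne out, while the summed T and NK cell markers were at 1.43 to 54.4 CPM and the B cell markers at 6.77 to 222 CPM. The 20 monocyte, macrophage and dendritic cell markers were at 955 to 1786 CPM, with 7 of 20 reaching 20 CPM, and the 14 epithelial markers at 92.04 to 313 CPM, with 3 of 14, and all 4 lists were higher in every naive than in every AT3-gcsf population. Their part in the results was not tested. Pairs of libraries shared 44, 20 and 20 barcodes. Cells carrying markers of another cell type (239 in naive, 118 in AT3, 58 in AT3-gcsf) were left out, because their median ribosomal protein share was 13.5%, 9.29% and 10.7%. A few cells with a high share remained: 43 of 24742 had at least 15%, and 7 of them held 15.3% of all ribosomal protein UMIs of naive MHTO4 and 16 held 10.1% of those of naive MHTO5. Results are therefore also given with the other-type cells kept, and without the 790 cells in which neutrophil markers made up under 5% of UMIs.

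Because the family is known for its TOP starts, the RefSeq promoter windows (GRCm38.p6, 250 bases before to 50 after the annotated start) were searched for C and T runs, and 60 of the 80 members matched by symbol. Exactly at the annotated start, 12 of these 60 (20%) began with C followed by at least 4 further C or T bases, against 2.49% of all 27025 promoters. A run of at least 8 C or T bases lying within or reaching into the 20 bases on either side of the start was found in 29 members (48.3%), against 20.8% of all promoters. The letters CCGGAAG on either strand, anywhere in the 300 bases, were found in 24 members (40%) and in 9.12% of all promoters. AAGATGG on either strand, whose first letters can overlap the end of CCGGAAG, was found in 8 members (13.3%) and in 6.48% of all promoters. Below are 20 bases on each side of the start, on the gene's own strand, for 4 members whose level was high in AT3-gcsf (Rpsa, Rplp0, Rps24, Rps19) and 3 whose part of the family was low there (Rps27, Rpl37, Rps9), with the longest C and T run in capitals.
Rpsa, chr9:120127746-120127785, plus strand: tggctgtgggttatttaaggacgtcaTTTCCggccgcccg
Rplp0, chr5:115559447-115559486, plus strand: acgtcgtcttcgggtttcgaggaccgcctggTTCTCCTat
Rps24, chr14:24490658-24490697, plus strand: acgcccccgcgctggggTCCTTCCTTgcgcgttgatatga
Rps19, chr7:24884572-24884611, plus strand: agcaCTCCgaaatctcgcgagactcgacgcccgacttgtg
Rps27, chr3:90213629-90213668, minus strand: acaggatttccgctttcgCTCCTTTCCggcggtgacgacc
Rpl37, chr15:5116593-5116632, plus strand: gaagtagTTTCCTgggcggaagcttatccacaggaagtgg
Rps9, chr7:3704021-3704060, plus strand: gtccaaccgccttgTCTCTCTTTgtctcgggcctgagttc
The longest run was 9 bases long and crossed the start in Rps24, Rps27 and Rps9, so such a run was found on both sides of this comparison. In the others the longest run did not cross the start: it was 5 bases in Rpsa and 7 in Rplp0, both after it, and 4 in Rps19 and 6 in Rpl37, both before it. Annotated starts can lie some bases from the start used in these cells.

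Ribosomal protein genes took 3.69% of UMIs in naive (interval 3.68 to 3.70) and 3.18% in AT3 (3.18 to 3.19). Their share was 4.26% in AT3-gcsf, where both bounds round to the same value. The naive populations were at 4.61% in MHTO3, 2.91% in MHTO4 and 4.22% in MHTO5. The AT3 populations were at 2.84% in MHTO7, 3.25% in MHTO8 and 3.77% in MHTO10. The AT3-gcsf populations were at 4.19% in MHTO3, 4.81% in MHTO4 and 3.81% in MHTO5. All 3 AT3-gcsf values lay above all 3 AT3 values, at the closest pair 3.81% against 3.77%, while naive spanned both groups. The order of the summed libraries was AT3-gcsf, then naive, then AT3 under every setting that gave all 3 values except one: with other-type cells kept, naive stood highest at 4.77%, ahead of AT3-gcsf at 4.33% and AT3 at 3.43%. It also rested on naive MHTO4, without which naive was at 4.41%.

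**Figure D1:**
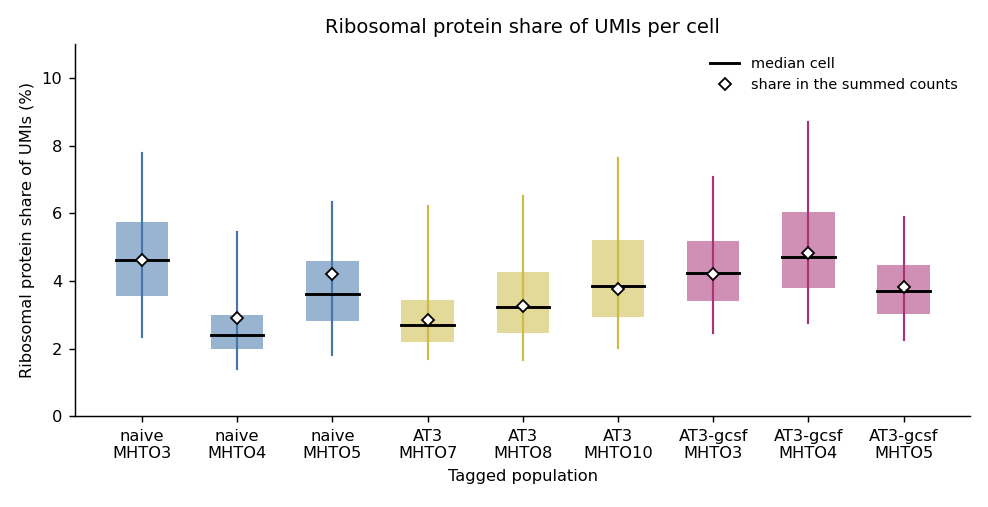
Percent of each cell's UMIs that came from ribosomal protein genes (vertical axis) in the 9 tagged populations (horizontal axis). Boxes span the quartiles, lines the 5th to 95th percentile of cells, black bars mark the median cell and diamonds the share in the summed counts. The lowest median was 2.39% in naive MHTO4 and the highest 4.70% in AT3-gcsf MHTO4.

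In naive MHTO4 and MHTO5 the median cell was well below the summed share, at 2.39% and 3.62%. By the median cell AT3-gcsf did not stand above all of AT3: AT3-gcsf MHTO5 was at 3.69% and AT3 MHTO10 at 3.86%. The range between the lower and upper quartile of cells ran from 1.99% to 3.00% in naive MHTO4 and from 3.56% to 5.75% in naive MHTO3, without overlap. Thinning every cell to 1000 UMIs gave medians of 2.40% in naive MHTO4 and 4.70% in naive MHTO3. A share of UMIs also depends on what else a cell holds: S100a8 and S100a9, the calprotectin genes, took 12.5% to 36.9% of UMIs across the naive populations, 25.3% to 39.3% in AT3 and 27.0% to 29.4% in AT3-gcsf. With both genes out of the totals the naive populations were at 5.49%, 4.61% and 4.82%, AT3 at 4.68%, 4.38% and 5.05%, and AT3-gcsf at 5.90%, 6.82% and 5.22%. On that scale the naive values drew closer together and the AT3-gcsf values stayed above all of AT3, but AT3-gcsf MHTO5 lay below naive MHTO3. The mitochondrial share also differed by library, at 0.287% to 0.454% in naive, 0.700% to 0.904% in AT3 and 1.33% to 1.56% in AT3-gcsf, and its part in the result was not tested.

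Small-subunit genes held 46.1% of the ribosomal protein UMIs in naive, 47.3% in AT3 and 47.0% in AT3-gcsf, so the subunits kept nearly equal parts throughout. Between libraries, the measured members were compared as the log2 ratio of summed CPM after adding 5 CPM to both sides, and a ratio of at least 1 in size was called 2-fold. The median ratio of the 31 small-subunit and 47 measured large-subunit genes was -0.19 and -0.26 in AT3 over naive, 0.16 and 0.20 in AT3-gcsf over naive, and 0.41 and 0.46 in AT3-gcsf over AT3. The 2 subunits thus lay close together in every comparison of libraries.

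**Figure D2:**
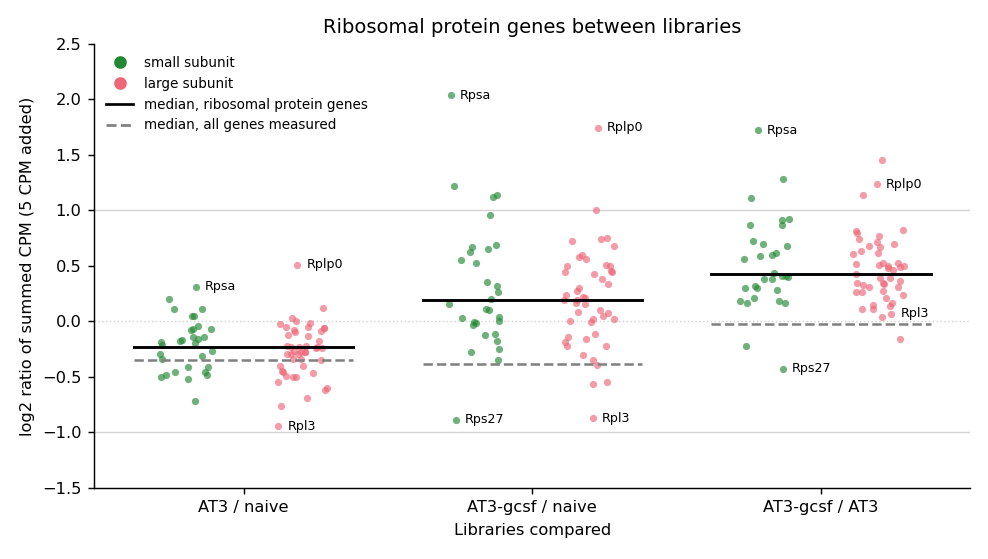
log2 ratio of summed CPM (vertical axis, 5 CPM added) for each of 78 measured ribosomal protein genes in the 3 comparisons of libraries (horizontal axis), with small-subunit genes in green and large-subunit genes in red. Solid bars are the median of these genes and dashed bars the median of all genes measured. Rpsa (2.04 and 1.73) and Rplp0 (1.75 and 1.23) stood at the top or near it in both AT3-gcsf comparisons. Under TMM scaling all points of a comparison shift upward together.

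In AT3-gcsf over naive, 6 of 78 members were at least 2-fold higher, against 5.04% of the 4128 genes measured, and none was 2-fold lower, against 21.1% of those genes. The median member was at 0.19 while the median gene was at -0.38. A smaller ratio of at least 0.5 was reached by 22 members (10.8% of all genes), and 4 members were at -0.5 or below (43.7% of all genes). In 26 members every AT3-gcsf population lay above every naive population (10.4% of all genes), and in none did every one lie below (30.2% of all genes). With other-type cells kept the median member was at -0.24, with 2 members 2-fold higher and 2 lower. Without the cells of under 5% neutrophil markers it was at 0.32 with 8 higher and none lower. Without naive MHTO4 it was at -0.05, and without AT3-gcsf MHTO4 at 0.03. The 2 conditions also differed in depth per cell, as given above.

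AT3-gcsf over AT3 gave 6 of 78 members at least 2-fold higher (2.31% of the 3557 genes measured) and none lower (2.53%). The count of higher members was 3 with other-type cells kept and 4 without AT3-gcsf MHTO4. The median member was at 0.43 and the median gene at -0.03, and 75 members lay above 0 (47.5% of all genes). In 38 members every AT3-gcsf population lay above every AT3 population (12.7% of all genes), and in none did all lie below (9.59%). This comparison shares the AT3-gcsf library with the last one, so the 2 are not independent.

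AT3 over naive gave no member 2-fold higher (1.99% of 3972 genes) and none 2-fold lower (6.12%). The count of lower members was 6 with other-type cells kept, with a median of -0.52, and 2 without naive MHTO4. The median member was at -0.23 and the median gene at -0.35. At the smaller size, 1 member was at 0.5 or above (4.83% of all genes) and 10 at -0.5 or below (35% of all genes). All 3 AT3 populations lay above all naive ones in 1 member, Rplp0 (2.92% of all genes), and below them in 15 members (14.1%). Scaling mattered here. TMM scaling, which aims to set the bulk of genes to equal level, moved the median of all genes by 0.50 in this comparison. It moved that median by 0.72 in AT3-gcsf over naive and by 0.17 in AT3-gcsf over AT3. The median of all genes then stood above equal level, at 0.15, 0.33 and 0.14 in the same order. TMM put the median member at 0.28, 0.85 and 0.60, with 1, 30 and 10 members 2-fold higher. Relative to the median of all genes, the median member lay 0.12, 0.57 and 0.46 higher on the CPM scale. Under TMM it lay 0.13, 0.52 and 0.46 higher. TMM divides all genes of a library by 1 factor, so this difference could hardly change and is no check on scaling. With other-type cells kept the 3 differences were -0.14, 0.20 and 0.39.

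The member that stood furthest apart was Rpsa (chr9:120127689-120132369), the laminin-receptor protein that sits on the small subunit. In naive its level was 136 CPM in MHTO3, 246 CPM in MHTO4 and 230 CPM in MHTO5. It was 323, 237 and 203 CPM in AT3 MHTO7, MHTO8 and MHTO10. It was 858, 987 and 830 CPM in AT3-gcsf MHTO3, MHTO4 and MHTO5. All 3 AT3-gcsf populations lay far above every other, while naive and AT3 overlapped. The log2 ratio was 2.04 against naive and 1.73 against AT3, from 214 CPM in naive (208 to 219), 267 CPM in AT3 (262 to 271) and 893 CPM in AT3-gcsf (887 to 899). Over all settings it ran from 1.04, with other-type cells kept, to 2.71, under TMM, against naive, and from 1.53 to 1.96 against AT3.

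Rplp0 (chr5:115559467-115563727), the core of the large subunit's acidic stalk that recruits elongation factors, came next in AT3-gcsf over naive. It was at 396, 398 and 404 CPM in the 3 naive populations. It was at 630, 542 and 505 CPM in AT3 and at 1319, 1432 and 1299 CPM in AT3-gcsf. The 3 conditions did not overlap, in the order naive, AT3, AT3-gcsf. With other-type cells kept Rplp0 was at 502, 579 and 659 CPM in naive and 638, 614 and 520 CPM in AT3, so these conditions then overlapped. Its log2 ratio was 0.51 in AT3 over naive, 1.75 in AT3-gcsf over naive and 1.23 in AT3-gcsf over AT3. The first of these ranged from 0.05, with other-type cells kept, to 1.02 over all settings.

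Rplp1 and Rplp2, the partners that form the stalk's tips on Rplp0, did not share its pattern. Rplp1 was at 513 CPM in naive, 317 in AT3 and 544 in AT3-gcsf, and Rplp2 at 486, 319 and 523. Their ratios in AT3-gcsf over naive were 0.08 and 0.10, although both were higher in every AT3-gcsf than in every AT3 population, at 0.77 and 0.70.

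Of the small-subunit genes, Rps24 and Rps19, both mutated in Diamond-Blackfan anaemia, an inherited failure of red cell production, were also high in AT3-gcsf. Rps24 was at 695, 675 and 714 CPM in naive, at 890, 747 and 680 CPM in AT3, and at 1490, 1598 and 1444 CPM in AT3-gcsf. Rps19 was at 139, 176 and 165 CPM in naive, at 199, 168 and 147 CPM in AT3, and at 362, 441 and 356 CPM in AT3-gcsf. In both genes AT3-gcsf stood clear of the other conditions and these overlapped. The ratio against naive was 1.12 for Rps24 and 1.22 for Rps19, and with other-type cells kept it was below 1, at 0.65 and 0.32. The populations of Rps19 then overlapped, with naive MHTO5 at 414 CPM and AT3-gcsf MHTO3 at 368 CPM.

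The 4 other Diamond-Blackfan genes examined were lower in AT3 and AT3-gcsf than in naive on the CPM scale, as were 68 of the 78 members in AT3 and 23 in AT3-gcsf (19.1% and 29.6% of all genes were above naive). Rpl5, which with Rpl11 binds the p53 regulator Mdm2 outside the ribosome, was at 162, 101 and 145 CPM in naive. It was at 65.6, 75.8 and 86.2 CPM in AT3, below every naive value, and at 80.8, 109 and 69.0 CPM in AT3-gcsf. Without cells of under 5% neutrophil markers naive and AT3 overlapped in Rpl5, with naive MHTO4 at 80.4 CPM and AT3 MHTO10 at 81.5 CPM. The ratio of Rpl5 in AT3 over naive was -0.76. Rpl11, Rpl35a and Rps26 had ratios of -0.46, -0.55 and -0.52 in that comparison and of -0.18, -0.40 and -0.35 in AT3-gcsf over naive. Under TMM scaling, described above, the ratios of Rpl5, Rpl11, Rpl35a and Rps26 were -0.27, 0.05, -0.03 and -0.01 in AT3 over naive and 0.11, 0.49, 0.29 and 0.33 in AT3-gcsf over naive, so the direction in AT3-gcsf depended on the scale.

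Rps20, Rps4x and Rpl10a completed the group with high levels in AT3-gcsf. Rps20, a small-subunit head protein, was at 212, 270 and 283 CPM in naive, at 293, 202 and 170 CPM in AT3, and at 535, 656 and 533 CPM in AT3-gcsf, with ratios of 1.14 and 1.29 against naive and AT3. With other-type cells kept, the ratio of Rps20 against naive was 0.27 and naive MHTO5, at 639 CPM, overlapped AT3-gcsf. Rps4x, the X-linked form of a small-subunit protein, had ratios of 0.96 and 0.91, just short of the 2-fold size. With other-type cells kept, the ratio of Rps4x against naive was 0.20. Naive MHTO5, at 534 CPM, then lay above AT3-gcsf MHTO3 and MHTO5, at 463 and 443 CPM.

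Rpl10a, a large-subunit protein near the exit site, was at 41.0, 71.6 and 74.2 CPM in naive, at 62.8, 38.1 and 25.04 CPM in AT3, and at 115, 169 and 114 CPM in AT3-gcsf. Its ratio against naive was 1.001, at the edge of the 2-fold size, and against AT3 it was 1.45. With other-type cells kept, Rpl10a was at 169 CPM in naive and the ratio was -0.25, and without cells of under 5% neutrophil markers it was at 33.6 CPM and the ratio was 1.80.

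**Figure D3:**
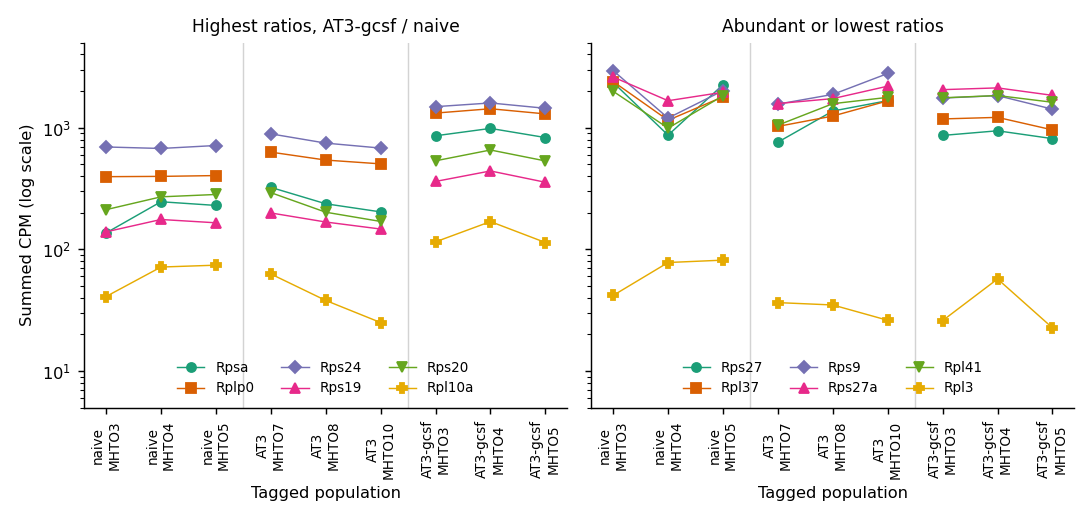
Summed CPM (vertical axis, log scale) of 12 ribosomal protein genes in the 9 tagged populations (horizontal axis). Each symbol is 1 gene, and lines only join the populations of a library to guide the eye. On the left, the 6 genes with the highest AT3-gcsf to naive ratios stand higher in all AT3-gcsf populations. On the right, abundant genes overlap between conditions and Rpl3 ranged from 22.7 to 81.6 CPM.

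At the low end were Rps27, Rpl37 and Rpl3. Rps27, a zinc-binding small-subunit protein, was at 2356, 868 and 2258 CPM in naive, at 761, 1371 and 1669 CPM in AT3, and at 864, 944 and 813 CPM in AT3-gcsf. The lowest naive and AT3 populations were thus at the level of AT3-gcsf, and the other 4 stood above it. The ratio in AT3-gcsf over naive was -0.89, and it ran from -1.40 without naive MHTO4 to -0.20 under TMM scaling. Its near-copy Rps27l, a p53-linked paralog, was far lower, at 54.7, 37.2 and 50.2 CPM in the 3 libraries.

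Rpl37 was at 2396, 1152 and 1795 CPM in naive, at 1025, 1248 and 1663 CPM in AT3, and at 1181, 1216 and 960 CPM in AT3-gcsf. The conditions overlapped, and its ratio in AT3-gcsf over naive of -0.57 turned to 0.12 under TMM scaling. Rpl3, which shapes the peptidyl transferase centre, was at 41.8, 78.0 and 81.6 CPM in naive, at 36.5, 34.9 and 26.1 CPM in AT3 and at 26.0, 57.1 and 22.7 CPM in AT3-gcsf. All AT3 values of Rpl3 lay below all naive ones, with a ratio of -0.94, while AT3-gcsf MHTO4 overlapped naive. With other-type cells kept AT3 and naive overlapped in Rpl3, with AT3 MHTO8 at 89.3 CPM and naive MHTO3 at 86.7 CPM. Without cells with primary granule transcripts, described below, AT3-gcsf MHTO4 was at 35.3 CPM and the lowest naive value was 41.8 CPM, in MHTO3. The naive values of Rpl3 in MHTO4 and MHTO5 were 40.2 and 39.2 CPM without cells of under 5% neutrophil markers, and over all settings its ratio in AT3 over naive ran from -1.45 to -0.47. Its muscle paralog Rpl3l was detected at 24.0, 23.0 and 28.6 CPM in the 3 libraries. Ribosomal protein genes have many near-identical copies elsewhere in the genome, and how reads shared with them were assigned was not given in the sources used here, so levels of single members, and of Rpl3l, Rps27l and Rpl39l in particular, are uncertain.

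Expressed as parts of the family, which removes any scaling between libraries, the make-up of the ribosomal protein UMIs differed most in AT3-gcsf. The 6 most abundant members, Rps27a, Rps9, Rpl41, Rpl37, Rps27 and Rps29, held 26.5% of the family's UMIs in naive, 26.8% in AT3 and 19.98% in AT3-gcsf. Rpsa made up 0.30%, 0.85% and 0.54% of the family in the naive populations, 1.14%, 0.73% and 0.54% in AT3, and 2.05%, 2.05% and 2.18% in AT3-gcsf. Rps27 made up 5.11%, 2.99% and 5.35% in naive, 2.68%, 4.22% and 4.43% in AT3, and 2.06%, 1.96% and 2.13% in AT3-gcsf. On this scale AT3-gcsf was clear of both other conditions in both genes, above them in Rpsa and below them in Rps27, and its 3 populations lay close together.

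Relative to the family's UMIs, 22 of 78 members were higher in every AT3-gcsf population than in every naive one (8.16% of all genes measured) and 22 were lower (39.5% of all genes). Among the 22 higher were Rpsa, Rplp0, Rps24, Rps19, Rps20, Rps4x, Rpl10a and Rpl12, and among the lower were Rps27, Rpl37, Rps29, Rps26, Rpl5, Rpl11 and Rpl35a. Against AT3, 24 were higher (4.41%) and 18 lower (37.8%). In AT3 over naive 2 were higher (6.57%) and 14 lower (10%). On this scale the members are parts of a fixed sum, so higher parts must be balanced by lower ones. Other genes are not, and shift down wherever the family's share of UMIs is higher. The percentages of all genes are therefore not a like background for the members. The parts of Rpsa and Rps27 in AT3-gcsf, 2.10% and 2.05% in the summed library, were 2.08% and 2.04% with other-type cells kept, while in naive they moved from 0.58% to 0.91% and from 4.38% to 3.64%.

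**Figure D4:**
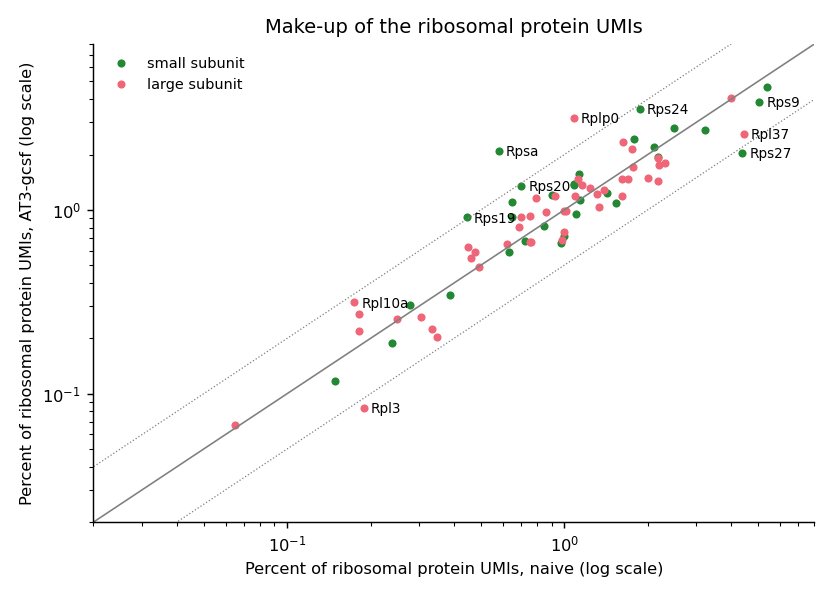
Percent of the ribosomal protein UMIs held by each member in naive (horizontal axis, log scale) and in AT3-gcsf (vertical axis, log scale), with small-subunit genes in green and large-subunit genes in red. The solid line marks equal parts and dotted lines a 2-fold difference. Rpsa (0.58% and 2.10%) and Rplp0 (1.08% and 3.17%) lie above the upper dotted line, and Rps27 (4.38% and 2.05%) and Rpl3 (0.19% and 0.08%) lie below the lower one.

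Within libraries, the populations with the highest and lowest ribosomal protein share were compared, a choice made by that share. In naive, 8 members were at least 2-fold higher in MHTO3 than in MHTO4 (21.9% of all genes measured) and none was lower (5.13%), with a median of 0.50 for the members and 0.52 for all genes, so the family differed about as much as other genes did. The widest of these were Rps27 at 1.43, Rps9 at 1.29 and Rpl3l at 1.29. In AT3, MHTO7 over MHTO10 gave a median of -0.31, against -0.49 for all genes, with 1 member 2-fold higher (3.15% of all genes), Rpl10a at 1.17, and 1 lower (17.4%), Rps27 at -1.13. In AT3-gcsf, all 78 members were higher in MHTO4 than in MHTO5 (68.9% of all genes), with a median of 0.38 against 0.19. Only Rpl3 reached 2-fold there, at 1.17 (1.98% of all genes), and none was 2-fold lower (6.6%). Without cells with primary granule transcripts, described next, Rpl3 was at 35.3 CPM in MHTO4 and 22.8 CPM in MHTO5, less than 2-fold apart.

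Part of AT3-gcsf MHTO4 consisted of cells with transcripts of the primary granule enzymes Elane, Mpo, Prtn3 and Ctsg, which neutrophil precursors make. With at least 3 such UMIs required, 136 of its 3563 cells qualified, 74 of them with exactly 3, and 189 further cells had exactly 2. Ribosomal protein genes took 7.38% of the summed UMIs of these 136 cells (7.34 to 7.41) and 4.63% of the rest, but the median cell was at 4.73% in them and at 4.70% in the rest. The median depth was 13571 UMIs in these cells and 7129 in the rest, and its part in the result was not tested. In the sums, 22 members were at least 2-fold higher (9.33% of all genes) and none lower (0.476%), with a median of 0.71 against -0.05 for all genes. Rpl3 was furthest apart, at 362 CPM against 35.3 CPM, followed by Rpl14 at 525 against 122 CPM and Rps2 at 1239 against 299 CPM. Rps27, at -0.25, and Rps9, at -0.12, were lower in them. Such cells numbered 4 in naive, 48 in AT3 and 194 in AT3-gcsf. The rule is a fixed count of UMIs, while depth per cell differed between the libraries. The 4 naive cells were all in MHTO4. Without them its Rpl3 was at 48.4 CPM rather than 78.0, its Rpl10a at 42.8 rather than 71.6 and its Rpsa at 185 rather than 246.

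Ribosomal protein share was also followed along the secondary granule genes, such as Ltf, Camp, Ngp and Lcn2, which neutrophils make in the marrow before they are released. Cells of each population were ranked by their share of these genes and split into 4 equal bins, with the granule genes left out of the total. The median share in the lowest and highest bin was 5.27% and 3.93% in naive MHTO3, 3.74% and 2.63% in naive MHTO4, and 4.13% and 3.16% in naive MHTO5. In AT3 it was 4.20% and 2.69% in MHTO7, 4.23% and 2.45% in MHTO8, and 4.93% and 2.94% in MHTO10. In AT3-gcsf it was 5.01% and 3.92% in MHTO3, 6.56% and 4.16% in MHTO4, and 4.03% and 3.86% in MHTO5.

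The highest granule bin was thus below the lowest in all 9 populations, by 0.17 percentage points in AT3-gcsf MHTO5 and by 2.40 in AT3-gcsf MHTO4. The lowest share of all was in the bin next to the highest in naive MHTO4 (2.31%), AT3 MHTO7 (2.41%) and AT3-gcsf MHTO5 (3.51%). Spearman's correlation over cells, which share a library and a depth range, ran from -0.51 in AT3-gcsf MHTO4 to -0.09 in AT3-gcsf MHTO5. Depth moved with this ranking: the median cell held 4073 UMIs in the lowest bin of AT3-gcsf MHTO4 and 14860 in the highest. Ranking by total UMIs instead gave a lower share in the deepest bin in all 9 populations, by 0.38 to 2.51 points, so depth and granule content cannot be told apart here.

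**Figure D5:**
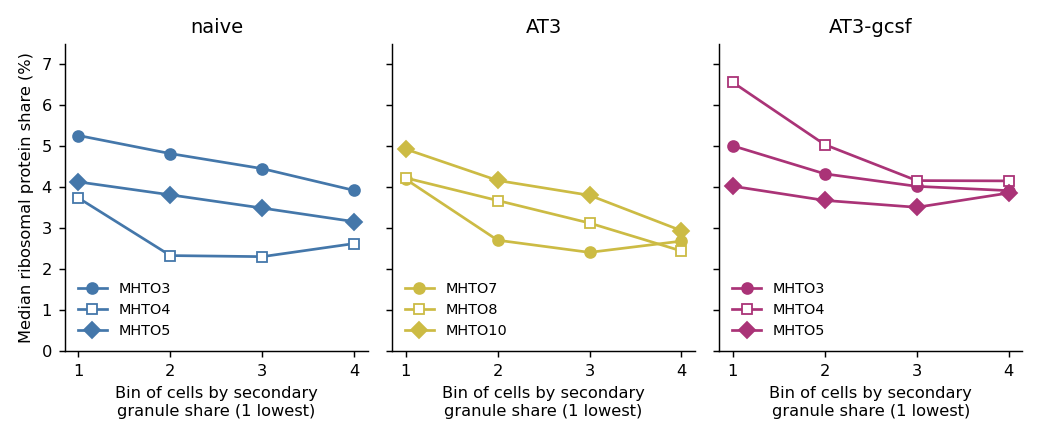
Median ribosomal protein share of UMIs per cell (vertical axis, percent, granule genes out of the total) in 4 bins of the cells of each population ranked by secondary granule share (horizontal axis, 1 lowest to 4 highest). Each line is 1 tagged population of the library named above the panel. The share was lower in bin 4 than in bin 1 in all 9 populations, and AT3-gcsf MHTO4 started highest, at 6.56%.

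A list of 24 other genes, chosen as having TOP starts and mostly of the translation machinery, was set beside the family. Their starts were not checked here. Of these genes 22 were measured in AT3-gcsf over naive. Their median was 0.43, against 0.19 for the ribosomal protein genes and -0.38 for all genes, with 1 gene at least 2-fold higher (5.04% of all genes) and none lower (21.1%). That gene was Eef1a1, the elongation factor that delivers transfer RNAs, at 561 CPM in naive (552 to 570), 640 CPM in AT3 (633 to 647) and 1186 CPM in AT3-gcsf (1179 to 1194). The 5 subunits of the initiation factor eIF3 in this list had ratios of 0.54 (Eif3e) to 0.88 (Eif3h), and the 7 subunits in the initiation list of -0.43 (Eif3a) to 0.53 (Eif3i), some of them under 20 CPM. Eef2, the elongation factor that moves the ribosome along, and Tpt1 had ratios of 0.51 and 0.65, and their populations overlapped between the conditions. Npm1 and Pabpc1 were at 0.28 and -0.19. In AT3-gcsf over AT3 the list's median was 0.45, and in AT3 over naive it was -0.05.

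Fau, Rack1 and Rps3a1, outside the naming rule, had smaller ratios than Rpsa. Fau, which encodes the small-subunit protein eS30 fused to a ubiquitin-like domain, was at 4668 CPM in naive, 3818 in AT3 and 3669 in AT3-gcsf, with a ratio of -0.35 in AT3-gcsf over naive. Rack1 and Rps3a1 had ratios of 0.45 and -0.21 in that comparison. Of 34 genes of ribosome assembly listed, 6 were measured in AT3-gcsf over naive, with a median of -0.39, near that of all genes, and 1 at least 2-fold lower, against 21.1% of all genes. This was Polr1a, the large subunit of RNA polymerase I, at 41.0 CPM in naive, 10.7 in AT3 and 3.44 in AT3-gcsf. Ncl, the nucleolar protein nucleolin, had a ratio of -0.49. Fbl was at 3.47 to 5.44 CPM in the 3 libraries, too low to be compared. Myc, a driver of ribosome production, was at most 1.16 CPM in any population.

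Of 24 genes of translation initiation, 15 were measured in AT3-gcsf over naive, with a median of -0.04. Eif4ebp1, which holds back cap-dependent translation until mTOR phosphorylates it, was the 1 gene of these 2-fold higher (5.04% of all genes), at 203 CPM in naive, 326 in AT3 and 436 in AT3-gcsf, although naive MHTO3, at 374 CPM, overlapped AT3-gcsf. Eif1 and Eif4a1 had ratios of -0.79 and -0.04. Of 21 genes of translation control 4 were measured, and the 1 at least 2-fold lower (21.1% of all genes) was Eif2ak3, the stress kinase PERK, with a ratio of -1.31. It was at 85.4, 26.3 and 19.3 CPM in the naive populations and at 15.7, 16.3 and 8.39 CPM in AT3-gcsf, so naive MHTO3 stood well above all the others.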

How the data were processed

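Single-cell RNA counts and hashtag counts were measured in 1 lane for each of naive, AT3 and AT3-gcsf. The authors deposited raw UMI counts per gene and barcode, made with bcl2fastq 2.20.0.422 and Cell Ranger 4.0.0 on mm10, per the submitters' processing notes. The deposited hashtag counts were used as given, and the program behind them was not given in the sources used here. The members and gene lists were chosen with earlier results of these data known.

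Hashtag counts were assigned by shared barcodes. Of a library's barcodes, 95.7%, 97.4% and 94.1% met the tag rule given next in 1 hashtag table, and at most 0.672% did in any other. A cell was kept when 1 named tag held at least 80% of at least 20 tag counts, with at least 200 genes and under 10% mitochondrial UMIs, and was left out when markers of another cell type reached 0.5% of its UMIs from at least 3 genes. Counts were summed per population and library and scaled to CPM. Log2 ratios used 5 CPM added to both sums and required 20 CPM in the higher one. Called means at least 2-fold, or 0.5 on the log2 scale as a second rule. Intervals are Poisson for counts and Clopper-Pearson for shares, both at 95%, and depth is 27025975 to 89206582 UMIs per library. Doublets were removed only as an alternative. Scrublet in scanpy 1.11.5, set to expect 8%, called 0.569%, 2.39% and 0.472% of cells. It was run on cells that met the tag rule, which can already leave out doublets of different tags. The called shares and the 8% are therefore not like measures. Scrublet is still not taken to have worked in naive or AT3-gcsf. Named genes were the 6 most abundant members, the 3 highest and 3 lowest in each comparison of libraries, the 3 widest ranges within each library, and fixed groups (stalk, paralogs, Diamond-Blackfan genes, other translation genes); Rpl12, Rpl14, Rps2, Eif4ebp1, Polr1a, Eif2ak3 and the eIF3 subunits were named after their values were seen. Some genes that the rule names are not reported here. The ratio rule and the intervals of shares were tested on simulated counts that held counting error only, without differences between cells, animals or lanes. The other rules were not tested in this way. TMM factors came from edgeR 4.0.16 (R 4.3.3). Python 3.11.15, numpy 2.4.6, pandas 2.3.3, scipy 1.17.1 and matplotlib 3.10.9 were used. Alternatives changed the cells kept, totals, scaling, added CPM, minimum and weights, and left out each population. Gene coordinates are mm10.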

Additional observations from a re-analysis of the deposited data

How the results depend on the processing

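No paired analysis was possible because each condition is 1 library and tags are not matched between libraries by any label. The share of UMIs in naive, AT3 and AT3-gcsf and the median log2 ratio of the members, given as AT3 against naive, AT3-gcsf against naive and AT3-gcsf against AT3, were recomputed under each alternative. With cells bearing markers of other types kept, the shares were 4.77%, 3.43% and 4.33% and the medians -0.52, -0.24 and 0.34; 6 members were then 2-fold lower in AT3 against naive, 2 were higher and 2 lower in AT3-gcsf against naive, and 3 were higher in AT3-gcsf against AT3. Under the same setting Rpl10a, the 1 called ratio that changed sign, was at -0.25 in AT3-gcsf against naive. TMM scaling gave medians of 0.28, 0.85 and 0.60 with 1, 30 and 10 members 2-fold higher, and so turned the direction in AT3 against naive.

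With S100a8 and S100a9 out of the totals the shares were 4.93%, 4.64% and 5.95% and the medians -0.11, 0.26 and 0.37. With the 20 most abundant other genes out they were 6.21%, 6.14% and 8.08%, and -0.039, 0.36 and 0.41. Thinning to 1000 UMIs gave 3.99%, 3.67% and 4.43%, and -0.15, 0.22 and 0.33. Without cells with primary granule transcripts they were 3.57%, 3.14% and 4.18%, and -0.21, 0.21 and 0.43. Without cells under 5% neutrophil markers, an alternative added after seeing the data, they were 3.32%, 3.07% and 4.18%, and -0.12, 0.32 and 0.47. Equal weight for populations gave 3.91%, 3.29% and 4.27%, medians of -0.26, 0.11 and 0.40, and 1 member 2-fold lower in AT3-gcsf against naive. The mean share per cell was 3.94%, 3.67% and 4.44% and the median share per cell 3.58%, 3.25% and 4.16%. Adding 7 genes with near names gave 4.26%, 3.65% and 4.73%, with medians of 0.19 and 0.41 for the AT3-gcsf comparisons.

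A tag share of at least 90% with 50 counts gave 3.17% in AT3, -0.24 in AT3 against naive and 0.44 in AT3-gcsf against AT3. Without Scrublet doublets these were 3.19% in AT3 and 0.43 in AT3-gcsf against AT3. Adding 1 CPM gave 1 member 2-fold lower in AT3 against naive and a median of 0.43 in AT3-gcsf against AT3. With no minimum level the AT3-gcsf medians were 0.20 and 0.42. Leaving out each population in turn gave shares of 3.37% to 4.41% in naive, 3.04% to 3.43% in AT3 and 3.96% to 4.56% in AT3-gcsf. The medians then ran from -0.42 to -0.14, from -0.054 to 0.29 and from 0.30 to 0.56, the count of members 2-fold lower from 0 to 2 in AT3 against naive and from 0 to 1 in AT3-gcsf against naive, and the count 2-fold higher from 5 to 7 in AT3-gcsf against naive and from 4 to 8 in AT3-gcsf against AT3.

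Of 1560 alternative ratios of named members 1455 kept their sign, of 126 medians between populations 113 did, and all 27 alternative differences between the highest and lowest bin of cells did, 9 each with granule genes kept, ranked by S100a8 and S100a9, and ranked by total UMIs. With granule genes kept, and in the ranking by S100a8 and S100a9, the ranking genes stayed in the total. That alone favours a lower share in the highest bin, so these values are no independent check. The cause of the shifts was not tested. Genes under 20 CPM were not compared. The protein lengths and paralog identities planned were not run.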
